A study of Gallus gallus with 8 samples.

Results

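Cholesterol in the retina is made locally from acetyl-CoA, taken up with lipoproteins, moved between membranes by lipid transfer proteins and removed by export or hydroxylation. The mRNA of 42 genes of this traffic was described here in the retina of chicks that had worn positive lenses. They were found as the probe sets (groups of short oligonucleotides against 1 transcript) whose platform gene symbol starts with OSBP, STARD or INSIG or is 1 of 27 listed sterol genes. This gave 87 of the 38439 probe sets tested. Of the listed genes, 3 matched no platform symbol, namely IDI1, EBP and SC5DL, and the last of these is annotated under its current symbol SC5D and is given with the other genes of the pathway. No probe set carries the symbol OSBP, the founding member of the oxysterol-binding family. A total of 4 White Leghorn chicks labelled as male and aged 9 days had both eyes covered by +6.9 D lenses during 24 h (plus lens), and 4 chicks of the same label, strain and age wore none (control). Both retinas of a chick were pooled and hybridized to 1 Affymetrix GeneChip Chicken Genome array, so that n is 4 chicks in each group. The question was whether myopic defocus, the image plane in front of the retina, changes these mRNAs in a tissue that controls eye growth.

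The endoplasmic reticulum senses its own sterol content. When sterols are low, SCAP carries the transcription factors SREBF1 and SREBF2 to the Golgi for cleavage, and these switch on the synthesis enzymes. When sterols are high, INSIG1 and INSIG2 hold SCAP back. Oxysterol-binding proteins (OSBP2 and the OSBPL genes) and START domain proteins (STARD genes) exchange sterols and phospholipids where membranes touch. In vertebrate retina, photoreceptors renew their outer segment membranes steadily, and both Mueller glia and the pigment epithelium supply lipid.

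Of the 87 probe sets, 56 had a mean intensity of at least 16, which stood for 34 of the 42 genes. Below this level the values lie close to background, and 53.4% to 53.8% of all probe sets of an array did so. Values are log2 of the deposited GC-RMA intensity, and differences are plus lens minus control. The array labels call all 8 chicks male. Of 39 W-linked probe sets, from the chromosome of female birds, 12 had a range of more than 4 on the log2 scale over the 8 arrays. The mean log2 intensity over these 12 was 8.26 to 8.62 in 6 arrays, whereas control replicates 2 and 4 had 3.72 and 3.07. The 12 were picked for their range in these same arrays, so the size of this split is a description. In both of these control arrays Z-linked probe sets of at least 16 lay higher than in the other 6 by a median of 0.48 (611 probe sets), and autosomal ones by −0.02 (13778 probe sets). Fluidics station 2 held the plus lens arrays and station 1 the control arrays, and the plus lens arrays were scanned first, so station, scan order and lens cannot be told apart. Mueller glia markers, 6 of 6 above 16, had a log2 summed intensity of 15.81 to 16.10 in plus lens and of 15.93 to 16.07 in control arrays. Photoreceptor markers (GNAT1, GNAT2, PDE6B and ARR3, 4 of 6 matched) summed to 14.26 to 14.56 in plus lens and 14.75 to 14.87 in control arrays. GNAT2 was picked by the study from these arrays, and the study's real-time PCR did not bear out its lower array value. A sum weighs the brightest markers most. The median log2 difference of the 4 photoreceptor markers was −0.09, with 1 higher and 3 lower, and 1 had an unadjusted limma p under 0.05. Pigment epithelium markers, 10 of 12 matched, summed to 9.06 to 9.74 and 9.37 to 10.70. Their median log2 difference was −0.01, with 4 higher and 6 lower, and 3 had an unadjusted limma p under 0.05. Of the 10, TYR, TYRP1, PMEL, BEST1, RDH5, LRAT and SLC45A2 lay below 16 and RPE65, DCT and MITF above it. Oligodendrocyte markers (4 of 6 matched) summed to 12.20 to 12.52 and 11.59 to 12.98, with none at this p. Microglia and leukocyte markers (8 of 8) summed to 8.66 to 9.40 and 8.74 to 9.38, with 1 at this p. Erythrocyte markers (4 of 10 matched, none at 16) summed to 4.34 to 5.60 and 4.33 to 4.34, and lens markers (5 of 6, none at 16) to 4.86 to 4.99 and 4.85 to 4.89. Whether these markers have a part in the results was not tested, and fewer cells of a type cannot be told from less RNA per cell in whole retina.

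None of the 87 probe sets passed the threshold of an adjusted p under 0.06 with a fold change of at least 1.5, where Benjamini-Hochberg adjusted limma p-values ran from 0.979 to 0.999, and 0% of all probe sets passed it (0 of 38439). At an unadjusted p under 0.05, 7 of 87 were listed (8.05%), beside 4.53% of all probe sets and 8.75% of all those of at least 16. Of the 7, 1 was higher in plus lens chicks, the dimmer probe set of OSBP2 (2.49% of all probe sets were higher at this p), and 6 were lower, 1 each of MVK, SREBF2, SCAP, OSBPL6, OSBPL9 and OSBPL11. The lower ones were 6.90% of the 87, and 2.03% of all probe sets were lower at this p. Among probe sets of at least 16, 6 of 56 members were listed (10.7%, beside the 8.75%), and 5 of them were lower (8.93%, beside 3.87% of all such probe sets). The number 7 became 4 without the 2 control arrays that lack W-linked signal, 2 without control replicate 4 alone, 4 without control replicate 2 alone, and 3 without control replicate 1, plus lens replicate 2 or plus lens replicate 4. With a fold change of at least 1.5 as well, 1 probe set was left (1.15%), that of OSBP2, against 0.421% of all probe sets. The study picked OSBP2 from these same arrays for its difference, so this share is a description. Of the 85 member probe sets without OSBP2, 0 passed both limits and 6 had an unadjusted limma p under 0.05, all lower. The median log2 difference was −0.01 over the 87 probe sets and 0.00160 over all probe sets. Of the 56 brighter probe sets, 42 (75.0%) had a 95% confidence interval from limma that lay wholly inside a 1.5-fold difference in either direction, beside 73.8% of all probe sets of at least 16.

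**Figure D1:**
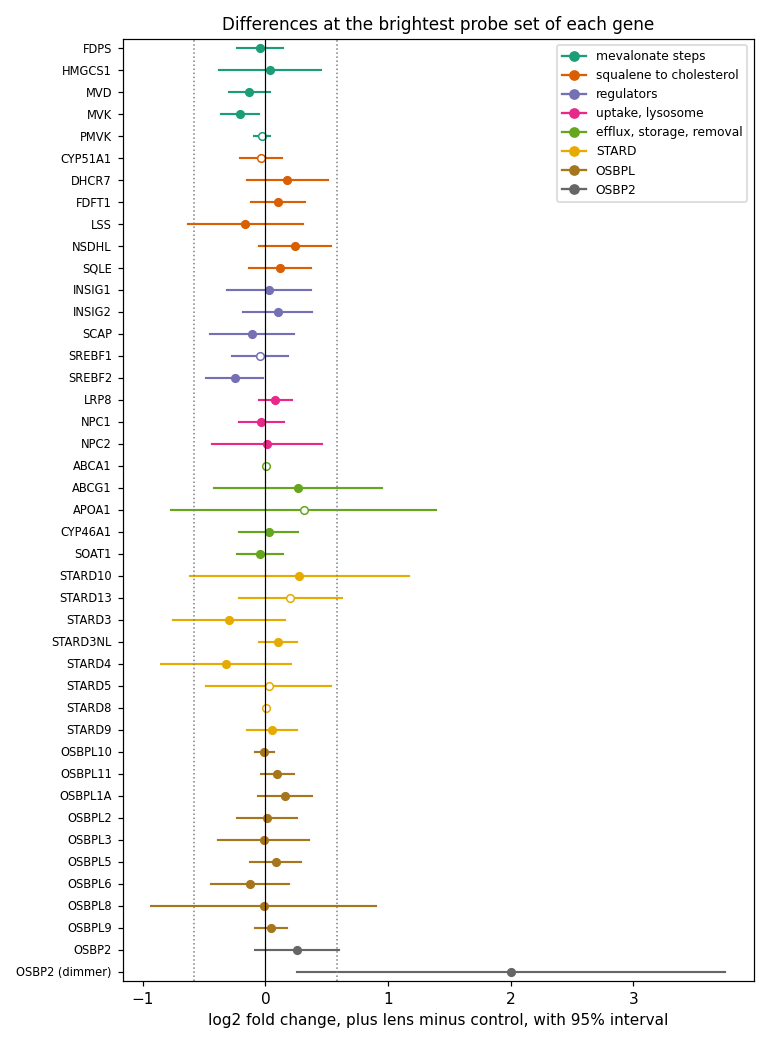
Log2 fold change (plus lens minus control, n = 4 chicks each) with its 95% confidence interval from limma at the brightest probe set of each of the 42 genes, and at the dimmer probe set of OSBP2. Open points have a mean intensity below 16, and dotted lines mark a 1.5-fold difference. The point of the dimmer OSBP2 probe set alone lies past these lines, with an interval of 0.25 to 3.75. The intervals of several other genes, such as STARD10, ABCG1 and OSBPL8, also reach past the lines.

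OSBP2, an oxysterol-binding protein also called ORP4, had a higher mean in plus lens chicks at both of its probe sets, by 1.2-fold at the brighter and 4.00-fold at the dimmer. The study picked OSBP2 from these same arrays for its difference, so its values are a description. By real-time PCR the study also reported higher OSBP2 mRNA after positive lens wear, in the arrayed chicks and some further ones. The PCR fold change was close to that of the brighter probe set and far below the 4.00-fold of the dimmer one. The study reported no change of OSBP2 with negative lenses, and no significant change after a shorter wear of positive lenses. At the dimmer probe set the log2 intensity was 5.48, 5.55, 7.01 and 5.04 in plus lens replicates 1 to 4, and 2.34, 4.29, 5.28 and 3.17 in control replicates 1 to 4. Plus lens replicate 3 stood highest and control replicates 1 and 4 lay below an intensity of 16, while control replicate 3 overlapped the plus lens range. The means were 5.77 ± 0.86 and 3.77 ± 1.28 (SD, n = 4 each), a log2 fold change of 2.0 (SE 0.73, 95% confidence interval 0.25 to 3.75, limma adjusted p = 0.979). The geometric mean intensity in control chicks was 13.6, so that the size of this difference is set against background. It was 1.38 on the log2 scale with values under 16 raised to 16, and 1.18 after adding 16 to each intensity.

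At the brighter OSBP2 probe set, with a geometric mean intensity of 567, the log2 values were 9.37, 9.28, 9.22 and 9.23 in plus lens and 8.73, 9.24, 9.31 and 8.80 in control replicates 1 to 4. Control replicates 2 and 3 lay within the narrow plus lens range, and control replicates 1 and 4 lay below all other arrays. These same 2 control arrays were also the lowest at the dimmer probe set. The means were 9.28 ± 0.07 and 9.02 ± 0.29 (SD, n = 4 each), a log2 fold change of 0.26 (SE 0.14, 95% confidence interval −0.08 to 0.60, limma adjusted p = 0.979), and it was 0.16 without control replicate 1. Of these arrays, replicate 4 is 1 of the 2 without W-linked signal and replicate 1 is not. Without control replicates 2 and 4 the difference was 0.26 at the brighter and 1.96 at the dimmer probe set, with an unadjusted p of 0.118 at the latter.

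**Figure D2:**
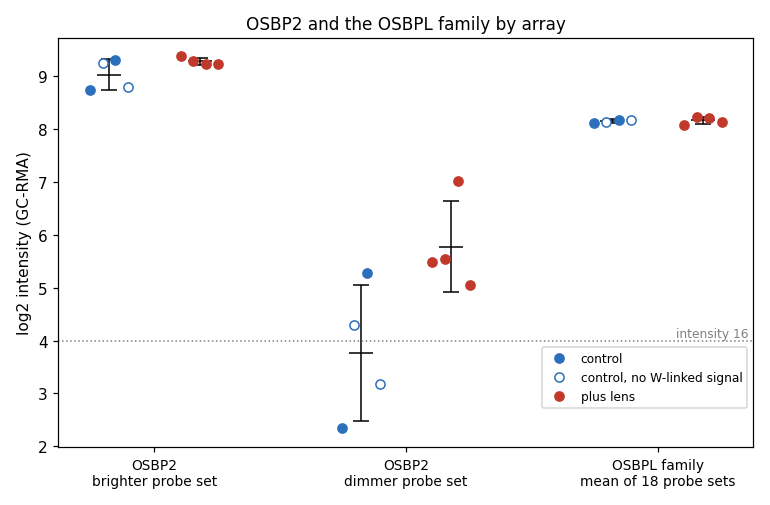
Log2 intensity of the brighter and the dimmer OSBP2 probe set and mean log2 intensity over the 18 OSBPL probe sets of at least 16, 1 point per array, with group means and SD (n = 4 chicks each). The dimmer OSBP2 probe set spans 2.34 to 7.01, and the OSBPL mean, a mean of 18 probe sets whose range is not comparable with that of 1, lies between 8.08 and 8.22.

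The OSBPL genes, relatives of OSBP2 with the same sterol-binding domain, had 28 probe sets for 9 genes, 18 of them of at least 16. The mean log2 intensity over these 18 was 8.16 ± 0.07 in plus lens and 8.14 ± 0.03 in control chicks (SD, n = 4 each), a difference of 0.01. The log2 intensity of the brighter OSBP2 probe set minus this family mean was 1.12 ± 0.12 in plus lens and 0.87 ± 0.28 in control chicks, and that of the dimmer one −2.39 ± 0.83 and −4.37 ± 1.27 (SD, n = 4 each). Relative to this family mean OSBP2 was thus higher in plus lens chicks by 0.24 and 1.99, which was not tested because OSBP2 was chosen for its difference. The second of these rests on control arrays near background, where the difference of the dimmer OSBP2 probe set alone was 1.38 with a floor of 16 and 1.18 with 16 added. Of the 28 probe sets, 13 had a positive and 15 a negative difference, with a median of −0.01 and a range of −0.38 to 0.40. The difference of the brighter OSBP2 probe set, 0.26, lay inside this range. The ends of the range were an OSBPL11 probe set below 16 and the dimmest OSBPL1A probe set. At the brightest probe set of each OSBPL gene the differences ran from −0.13 (OSBPL6) to 0.16 (OSBPL1A), all below the 0.26 of OSBP2. This too was not tested, because OSBP2 was chosen for its difference. In 15 of the 18 OSBPL probe sets of at least 16 the 95% confidence interval lay inside a 1.5-fold difference.

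OSBPL6, a protein of the endoplasmic reticulum, had at its second brightest probe set log2 values of 7.46, 7.37, 7.52 and 7.35 in plus lens and 7.70, 7.45, 7.81 and 8.01 in control replicates 1 to 4. The groups overlapped through control replicate 2, and the plus lens values were close together. The log2 fold change was −0.31 (SE 0.12), and −0.13 (SE 0.13) at the brightest of its 4 probe sets. OSBPL9, which acts at late endosomes and the Golgi, had log2 values of 7.84, 7.70, 7.56 and 7.52 in plus lens and 7.91, 7.92, 7.93 and 7.73 in control replicates 1 to 4 at the dimmer of 2 probe sets. There the groups overlapped through control replicate 4 and plus lens replicate 1, with a log2 fold change of −0.21 (SE 0.08), while its brighter probe set had 0.05 (SE 0.06).

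OSBPL11, a partner of OSBPL9, had a lower mean in plus lens chicks at a probe set below 16, with 3.34, 3.15, 3.33 and 3.14 against 3.87, 3.49, 3.33 and 3.79 in control replicates 1 to 4. All 8 of these arrays lay under an intensity of 16, control replicate 3 overlapped the plus lens range, and its brightest probe set differed by 0.10 (SE 0.06). The permutation p was 0.0857 for OSBPL6 and OSBPL11 and 0.0571 for OSBPL9 (exact two-sided permutation test over 70 relabelings, smallest possible p = 0.0286).

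OSBPL1A, which regulates late endosome position by sensing sterol, had a positive difference at each of its 4 probe sets. Its brightest probe set had log2 values of 12.14, 11.90, 12.05 and 11.77 in plus lens and 11.66, 11.88, 11.90 and 11.78 in control replicates 1 to 4, with overlap between the groups. The log2 fold change was 0.16 (SE 0.09, 95% confidence interval −0.06 to 0.38), and 0.10 to 0.40 over the 4 probe sets. These probe sets measure 1 gene in the same chicks, so they are not 4 independent results. At their brightest probe sets, OSBPL2, a sterol exchanger at the plasma membrane, differed by 0.01 (95% confidence interval −0.23 to 0.26), OSBPL3 by −0.01 (−0.39 to 0.36), and OSBPL10 by −0.01 (−0.08 to 0.07). OSBPL5, an exchanger of phosphatidylserine at contacts between endoplasmic reticulum and plasma membrane, differed by 0.08 (−0.12 to 0.29). OSBPL8, of the same function, had its brightest probe set near background, with an interval of −0.93 to 0.90 too wide to bound its difference.

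The STARD genes had 15 probe sets for 8 genes, 8 of them of at least 16, and none had an unadjusted p under 0.05. STARD4, a soluble sterol carrier of the cytosol whose gene is Z-linked, had the most negative difference at both of its probe sets. The brighter one had log2 values of 9.22, 9.77, 9.67 and 9.53 in plus lens and 9.55, 10.27, 9.49 and 10.15 in control replicates 1 to 4. The dimmer one had 7.17, 7.55, 7.90 and 7.35 against 7.68, 8.34, 7.31 and 8.16. At both, control replicates 2 and 4, the arrays without W-linked signal, lay above the other 6, and control replicates 1 and 3 lay among the plus lens arrays. The log2 fold change was −0.32 (SE 0.22) at the brighter and −0.38 (SE 0.27) at the dimmer probe set, and 0.02 and −0.0002 with a term for these 2 arrays in the fit. The 2 arrays exceeded the other 6 by a mean of 0.67 and 0.76 at STARD4, above the median of 0.48 for Z-linked probe sets.

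**Figure D3:**
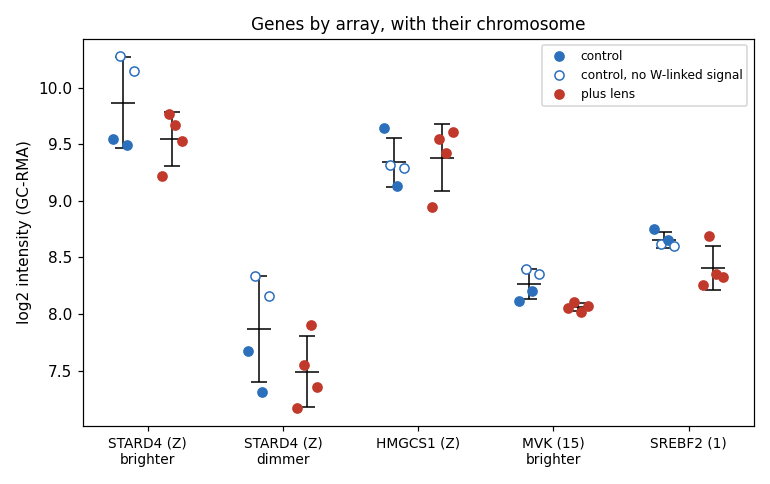
Log2 intensity per array of the Z-linked genes STARD4 (2 probe sets) and HMGCS1 and of the autosomal genes MVK and SREBF2, with group means and SD (n = 4 chicks each); open points are control replicates 2 and 4, which lack W-linked signal. The open points lie above the 6 other arrays at both STARD4 probe sets and at MVK, and inside their range at HMGCS1 and SREBF2.

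STARD3, which tethers late endosomes to the endoplasmic reticulum and moves cholesterol between them, had log2 values of 6.71, 6.44, 7.05 and 6.48 in plus lens and 7.36, 6.77, 7.01 and 6.72 in control replicates 1 to 4. The groups overlapped, with a log2 fold change of −0.30 (SE 0.19, 95% confidence interval −0.75 to 0.16). STARD3NL, its relative without the lipid-binding domain, had log2 values of 10.08 ± 0.08 and 9.98 ± 0.11 (SD, n = 4 each), and its 4 probe sets ran from −0.16 to 0.33. The −0.16 was that of a probe set below 16, and the others ran from −0.01 to 0.33. STARD10, a phospholipid carrier, had a difference of 0.28 (95% confidence interval −0.61 to 1.17), and STARD9, a kinesin, of 0.05 (−0.15 to 0.26). The probe sets of STARD5, STARD8 and STARD13 all had mean intensities below 16. The brightest of them, of STARD13, had a mean of 4.08 ± 0.36 in plus lens and 3.88 ± 0.07 in control chicks (SD, n = 4 each), a difference of 0.20 (95% confidence interval −0.21 to 0.62).

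The mevalonate enzymes and the enzymes from squalene to cholesterol had 16 probe sets for 11 genes, 8 with a positive and 8 with a negative difference. Mevalonate kinase (MVK) had the smallest p among them. The log2 intensity of MVK at its brighter probe set was 8.05, 8.11, 8.02 and 8.07 in plus lens and 8.12, 8.40, 8.20 and 8.35 in control replicates 1 to 4. The groups did not overlap, but the highest plus lens array and the lowest control array differed by 0.01. This was the 1 probe set of the 87 without overlap (1.15%). Over all probe sets 2.86% had no overlap, 1.1% as the lower and 1.77% as the higher in plus lens chicks. The means of MVK were 8.06 ± 0.04 and 8.27 ± 0.13 (SD, n = 4 each), a log2 fold change of −0.21 (SE 0.06, limma adjusted p = 0.979; p = 0.0286 by exact two-sided permutation, the lowest value 4 against 4 arrays can give). Control replicates 2 and 4 were the highest arrays, and with a term for them the difference was −0.10 (SE 0.03). The other probe set of MVK had −0.03 (SE 0.04).

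HMGCS1, which makes the substrate of the rate-limiting reductase, is Z-linked, and its log2 values were 8.95, 9.55, 9.42 and 9.61 in plus lens and 9.64, 9.31, 9.13 and 9.29 in control replicates 1 to 4. The values of the 2 arrays without W-linked signal lay between those of the other control arrays, unlike at STARD4, and the log2 fold change was 0.04 (95% confidence interval −0.38 to 0.46). FDPS, which makes farnesyl pyrophosphate, differed by −0.04 (−0.23 to 0.14) and MVD, a decarboxylase, by −0.13 (−0.30 to 0.04). The squalene synthase FDFT1 differed by 0.10 (−0.11 to 0.32) and the epoxidase SQLE by 0.12 (−0.13 to 0.37). PMVK and CYP51A1 lay below 16 in their single probe sets.

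NSDHL, which removes methyl groups from the sterol ring, had the largest positive difference of the enzymes. Its log2 values were 7.74, 8.05, 7.86 and 8.11 in plus lens and 7.85, 7.49, 7.88 and 7.57 in control replicates 1 to 4. Control replicates 2 and 4 were the lowest of all arrays and the other control arrays lay within the plus lens range, with a log2 fold change of 0.24 (SE 0.12, 95% confidence interval −0.05 to 0.53). DHCR7, the last reductase of the pathway, differed by 0.18 (SE 0.14, −0.15 to 0.51) and the cyclase LSS by −0.16 (SE 0.20, −0.63 to 0.31).

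Single arrays differed in synthesis genes within the groups. Of the 9 synthesis genes with a probe set of at least 16 and INSIG1, a target of the same transcription factors, 9 of 10 lay below their own mean over the 8 arrays in plus lens replicate 1, and 8 of 10 in control replicate 4. In plus lens replicate 2, 8 of 10 lay above it, and in control replicate 1, 7 of 10. Over all probe sets of at least 16, 46.0% to 55.1% lay below their own mean in an array. The mean deviation of the 10 genes was −0.15 in plus lens replicate 1, 0.15 in plus lens replicate 2, 0.13 in control replicate 1 and −0.10 in control replicate 4. High and low arrays thus stood in both groups, and the arrays without W-linked signal had −0.09 and −0.10 in their mean deviation. The range over the 8 arrays was 0.77 for LSS, 0.69 for HMGCS1, 0.62 for NSDHL and 0.60 for DHCR7, and 0.30 for FDPS, the smallest. MVK had its 2 highest values in control replicates 2 and 4, where 7 and 8 of the 10 genes were below their means. The other genes above their means were FDPS and MVD in control replicate 2 and DHCR7 in control replicate 4.

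**Figure D4:**
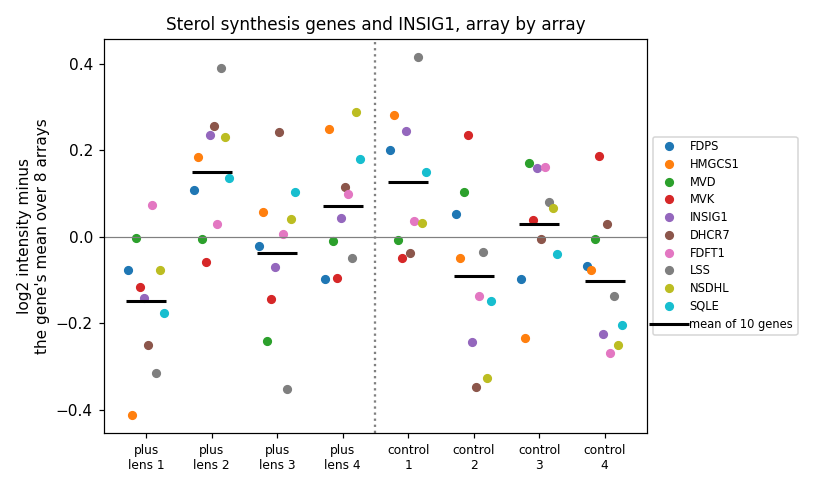
Log2 intensity of 9 sterol synthesis genes and INSIG1 in each of the 8 arrays, minus the gene's own mean over the 8 arrays; colours are genes and black bars their mean. The mean lies at −0.15 in plus lens replicate 1 and at 0.15 in plus lens replicate 2, the lowest and the highest of the 8 arrays.

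Of the regulators, SREBF2, the transcription factor that mainly drives cholesterol synthesis, had log2 values of 8.25, 8.69, 8.35 and 8.33 in plus lens and 8.75, 8.62, 8.65 and 8.60 in control replicates 1 to 4. Except for plus lens replicate 2, the plus lens arrays of SREBF2 lay below all control arrays. The means were 8.41 ± 0.19 and 8.66 ± 0.07 (SD, n = 4 each), a log2 fold change of −0.25 (SE 0.10, 95% confidence interval −0.48 to −0.02, limma adjusted p = 0.979; exact two-sided permutation, p = 0.114). It was −0.30 when the fit held a term for W-linked signal. Its relative SREBF1, which drives fatty acid synthesis, was below 16 at all 3 probe sets.

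SCAP, the sterol sensor that escorts these factors, had at its second brightest probe set log2 values of 4.90, 4.91, 5.05 and 4.88 in plus lens and 5.27, 5.20, 4.94 and 5.28 in control replicates 1 to 4. Plus lens replicate 3 and control replicate 3 crossed over, and the log2 fold change was −0.23 (SE 0.08; exact two-sided permutation, p = 0.0571). The probe set lay not far above 16, at a geometric mean of 33.2. Of the 3 other SCAP probe sets, those of at least 16 had −0.11 and −0.13, and the dimmest, below 16, had 0.17. INSIG1, which retains SCAP and is a target of SREBF2, had log2 values of 10.47 ± 0.16 and 10.44 ± 0.25 (SD, n = 4 each), with differences of −0.16 to 0.03 over 3 probe sets. INSIG2 had 10.07 ± 0.19 and 9.97 ± 0.17 (SD, n = 4 each) and a difference of 0.10 (95% confidence interval −0.19 to 0.38).

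Genes of uptake and lysosomal exit had 4 probe sets, none with an unadjusted p under 0.05. LRP8, a lipoprotein receptor of neurons, had log2 values of 7.74 ± 0.10 and 7.65 ± 0.06 (SD, n = 4 each), a difference of 0.08 (95% confidence interval −0.06 to 0.22). NPC1, the membrane protein that passes cholesterol out of the lysosome, differed by −0.03 (−0.21 to 0.15) at its brighter and by −0.20 (−0.49 to 0.10) at its dimmer probe set. At the latter, control replicates 2 and 4 lay at 7.25 and 7.30, above the other 6 arrays at 6.74 to 7.08, and the difference was −0.01 with a term for them. NPC2, the soluble partner of NPC1, differed by 0.01 (−0.43 to 0.46).

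Genes that remove or store cholesterol had 10 probe sets, 4 of them of at least 16 and none with an unadjusted p under 0.05. CYP46A1, the neuronal enzyme that makes 24-hydroxycholesterol, had log2 values of 8.32 ± 0.11 and 8.29 ± 0.18 (SD, n = 4 each), a difference of 0.03 (95% confidence interval −0.21 to 0.26). SOAT1, which esterifies cholesterol for storage, differed by −0.05 (−0.23 to 0.14). The exporter ABCG1 lay not far above 16 and differed by 0.26 (−0.42 to 0.95) at its brightest probe set, where plus lens replicate 4 stood at 6.36 and the other 7 arrays at 5.06 to 5.58, and by −0.05 at its second brightest. ABCA1, the exporter that loads lipid onto apolipoprotein A-I, lay below 16 in all 8 arrays. APOA1, that apolipoprotein, had means below 16 at both of its probe sets, with control replicate 3 above it at both, at 4.77 and 4.24, and plus lens replicate 4 at the brighter one, at 4.35.

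Other genes of sterol metabolism were read from a list of 54 further symbols. Of these, 43 matched 84 probe sets, 44 of them of at least 16, and 0 passed the adjusted threshold by limma. At an unadjusted p under 0.05, 2 of the 84 were listed (2.38%, beside 4.53% of all probe sets), 1 in each direction, none of them 1.5-fold. MYLIP, a ubiquitin ligase for lipoprotein receptors, was the higher one, with log2 values of 8.24, 8.15, 8.38 and 8.39 in plus lens and 7.92, 8.06, 8.17 and 8.07 in control replicates 1 to 4. Control replicate 3 overlapped plus lens replicate 2, and the log2 fold change was 0.24 (SE 0.07; exact two-sided permutation, p = 0.0571). GRAMD1B, a sterol transfer protein at plasma membrane contacts, was the lower one, with −0.12 (SE 0.05) at its dimmer probe set. Its brighter probe set had −0.10 (SE 0.05). MBTPS2, the protease that makes the second cleavage of SREBF proteins, had the 1 difference past 1.5-fold, a log2 fold change of 0.65 (SE 0.42). It came with control replicate 4, at 4.91 beside 6.50 to 7.11 in the other 7 arrays. That array is 1 of the 2 without W-linked signal, and with a term for them the difference was 0.15. The second brightest MBTPS2 probe set had 0.34 (SE 0.27), with control replicate 4 again lowest, at 5.44. Its dimmest probe set, below 16, had 0.01. SC5D, the desaturase listed as SC5DL, differed by −0.24 (SE 0.23) at its brighter probe set.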

How the data were processed

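Retinal RNA of 8 chicks was measured on 8 arrays. The authors scanned them with Microarray Suite 5.0 and made GC-RMA values in ArrayAssist 4.0; the deposited values are linear intensities, 1 per probe set and array, and no source used here names the GC-RMA version. The deposited experiment records, of other values, gave station, module and scan order. The 96 Affymetrix control rows among 38535 were removed. Log2 was taken with no filter, floor or scaling. Gene symbols are those of the platform annotation (27168 probe sets with 1, 177 with several, 11094 with none), and chromosomes from RefSeq (GRCg7b), by gene identifier, for 86 of the 87 probe sets. No sequence was used here.

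Groups were compared without a block by limma 3.58.1 (lmFit, eBayes) in R 4.3.3, where the methods use unpaired t-tests, with Benjamini-Hochberg adjustment over all 38439 probe sets. Calls needed an adjusted p below 0.06 together with 1.5-fold. Deviations of same-numbered arrays correlated by −0.01 to 0.11, so the numbers were not taken as pairs. The replicate number is also the fluidics module number in both groups, so the replicate block below is a block of module number as well. Values per array are given for OSBP2, for member probe sets with an unadjusted p under 0.05 or 1.5-fold, and for examples per role. STARD3, STARD4, HMGCS1, OSBPL1A, NSDHL, NPC1 and ABCG1 were added after their values were seen. Further genes of the pathway are named at the same limits, MYLIP and MBTPS2 with values of arrays and GRAMD1B without. A gene is represented by its probe set with the highest mean. Members and lists were chosen with earlier results of these data known. The fit was run on simulated independent normal noise with planted differences, as a check of the code. That noise held no split of W-linked signal and no station effect, so the run does not bear on power for small differences here. The number of arrays limits the precision, and p-values set the difference of the groups against the spread between arrays of a group, 1 chick each. Alternatives were another normalization (quantile, median centring), a floor or pseudocount of 16, a filter on dim probe sets, array weights, a trend with robust eBayes, the methods' t-test, the replicate block, a term for W-linked signal, and leaving out arrays. The methods' t-test listed 6 members at an unadjusted p under 0.05.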

Additional observations from a re-analysis of the deposited data

Results flagged for a closer look

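Among the probe sets given with their values per array, 3 of 36 groups of 4 held an array far from the 3 others by Dixon's ratio. Chance marks about 1 in 20 groups that were not picked by their values. These probe sets were mostly picked by theirs, so the 3 cannot be set against that rate. OSBPL9 at its dimmer probe set lay at 7.73 in control replicate 4, and the nearest control array at 7.91 (ratio 0.905). SCAP at its second brightest probe set lay at 5.05 in plus lens replicate 3, and the nearest plus lens array at 4.91 (ratio 0.836). MBTPS2 at its brightest probe set lay at 4.91 in control replicate 4, and the nearest control array at 6.50 (ratio 0.863).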

How the results depend on the processing

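No member probe set was called in any of the 19 alternatives. Over all probe sets the count of calls was 0 in limma, 1 with the filter on dim probe sets, 3 with a term for W-linked signal, and 0 to 1 when leaving out 1 array. Of the members, 1 was listed at 1.5-fold with an unadjusted p under 0.05. This count was 0 with the W-linked term, without control replicates 2 and 4 or with 1 probe set per gene, 3 at 1.2-fold, and 0 to 1 when leaving out 1 array, with 0 without plus lens replicate 1, 2 or 3 or control replicate 1 or 4. Adding SC5D, an alternative chosen after seeing the data, left it at 1. The 7 members at an unadjusted p under 0.05 became 4 with the W-linked term and without control replicates 2 and 4, 2 with 1 probe set per gene, and 2 to 6 when leaving out 1 array. The difference at the dimmer OSBP2 probe set was 1.18 to 2.50 and at the brighter 0.16 to 0.37. Single probe sets had adjusted p-values of at least 0.431 in every alternative (limma or the methods' t-test), so none could lose a call. Of their 188 values, 2 changed sign. The brighter STARD4 probe set turned from −0.32 to 0.0224 with the W-linked term and without control replicates 2 and 4, and the dimmer went from −0.38 to −0.0002. With the replicate block, 6 members had an unadjusted p under 0.05, and the log2 fold change of the dimmer OSBP2 probe set was 2.0 (SE 0.36, adjusted p = 0.633 from limma); the block changed no call. With each array centred on its median, 40.2% of members and 34.3% of all probe sets were higher, beside 48.3% and 55.8% without. The OSBPL11 probe set gave no value at the floor of 16 or with the filter on dim probe sets, since all its arrays lay below it. An unadjusted p under 0.05 was kept by MVK in 19 of 19 alternatives, by the dimmer OSBP2 probe set in 12 and by SREBF2 in 6. OSBPL6 and OSBPL9 kept it in 12 each, SCAP in 10, and OSBPL11 in 11 of 17. The difference of MVK was −0.10 with the W-linked term and without control replicates 2 and 4, beside −0.21 in the main fit.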
